A study of Homo sapiens with 12 samples.

Results

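The genes described here are 38 human genes of the lysosome and of autophagy, among them LAMP3, chosen by name from the 56609 gene symbols measured. All 38 were found, and all 38 passed the filter on low values (at least 1 CPM, counts per 1000000 reads, in at least 3 libraries), as did 14335 symbols in all. CTSZ and HEXA passed it only through the TC-71 libraries. LAMP3 is in the list because its mRNA differs in opposite directions in the 2 resistant derivatives, so its values are given as a description with no test, and counts of members are over the other 37.

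RNA was sequenced from A4573 and TC-71, which are human cell lines from Ewing sarcoma, a tumour of bone and soft tissue, and from their derivatives A4573-R and TC-71-R. The derivatives resist YK-4-279, a small molecule made to inhibit the fusion protein EWS-FLI1, the driver of this tumour. Each of the 4 groups has 3 libraries, and all cells grew in RPMI medium with serum. The A4573 parental and TC-71 parental libraries were labelled with DMSO, A4573-R with YK-4-279 at 650 uM and TC-71-R with YK-4-279 at 400 uM, doses printed as labelled although their unit is in doubt. The effects of being resistant and of being in the drug cannot be told apart, and each resistant group is 1 derivative of 1 line. In bulk RNA, fewer cells that express a gene and less RNA per cell cannot be told apart either.

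The lysosome is the acidic compartment in which hydrolases digest material brought in by endocytosis or by autophagy. In autophagy a double membrane grows around cytoplasm, proteins of the ATG8 family are attached to it by a conjugation system, and the closed autophagosome fuses with a lysosome. Many genes of this system carry the CLEAR element in their promoters, an extended E-box that TFEB, TFE3 and MITF bind. LAMP1 and LAMP2 are the abundant glycoproteins that line the lysosomal membrane in most cells, whereas LAMP3 (DC-LAMP) is known from mature dendritic cells and some epithelia and is induced in tumour cells through the unfolded protein response, hypoxia and interferon.

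The core of the CLEAR element, TCACGTG, was searched for on both strands in the 250 bases before the start of each gene in RefSeq's promoter table (GRCh38.p14), because it is what many of these genes are known to share. The table has 30 of the 38 members, and LAMP2, LAMP3, CTSB, HEXA, SGSH, PSAP, ATP6V1H and MAP1LC3A are not among them. TCACGTG stood in 8 of the 30 members (26.7%) and in 4.02% of the 27305 genes with an entry. The E-box CACGTG, which TCACGTG contains and which reads the same on both strands, stood in the same 8 members and in 7.73% of genes. The stretches below each show 1 match per gene, 5′ to 3′ on the gene's strand, with the match in capitals. In CTSD and CLN3 the capitals read CACGTGA, the motif on the opposite strand.
CTSA, + strand, chr20:45891278-45891312: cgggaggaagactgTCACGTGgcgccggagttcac
CTSD, - strand, chr11:1763954-1763988: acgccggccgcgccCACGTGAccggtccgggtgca
GAA, + strand, chr17:80101490-80101524: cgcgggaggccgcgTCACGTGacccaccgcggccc
NEU1, - strand, chr6:31862928-31862962: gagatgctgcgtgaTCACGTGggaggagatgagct
LAMP1, + strand, chr13:113297196-113297230: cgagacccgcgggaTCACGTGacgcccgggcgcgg
MCOLN1, + strand, chr19:7522568-7522602: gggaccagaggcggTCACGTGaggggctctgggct
ATP6V0D1, - strand, chr16:67481197-67481231: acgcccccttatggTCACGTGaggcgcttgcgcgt
CLN3, - strand, chr16:28492084-28492118: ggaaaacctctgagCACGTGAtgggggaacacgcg
A match describes these letters only. The 8 genes did not change in 1 direction. In A4573-R 3 were higher (38.3% of all genes tested), 3 lower (34.1%) and 2 not past the threshold. In TC-71-R 5 were higher (38.8%), 2 lower (39.6%) and 1 not past it. Of the 22 members with an entry but no match, 11 were higher and 7 lower in A4573-R, and 10 were higher and 7 lower in TC-71-R. These counts are to be read beside the same shares, and the 8 genes were not tested against other genes.

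The libraries hold 44.0 to 62.1 M reads (M, 1000000) on named genes, and libraries of a group correlate at 0.997 to 0.999 across genes. Of 8 Ewing sarcoma markers, 7 were at a mean of at least 1 CPM in each group. CD99 was measured at or near 0 in all 12 libraries (at most 0.0145 CPM). It is annotated at 2 positions, on chromosomes X and Y, between which its reads could be split or left uncounted. The value therefore does not show that CD99 is absent, and its cause was not tested. Of 10 dendritic cell markers, 8 were below a mean of 0.1 CPM in each group, but not the same 8 throughout. CCR7, at 0.0531 to 0.140 CPM, was not among them in A4573 parental. CD1A, CD1C, CCL22 and CLEC4C were at 0 in every library. The sum of the 10 was 21.9 to 23.8 CPM in A4573 parental, 35.7 to 37.8 in A4573-R, 16.1 to 16.3 in TC-71 parental and 24.2 to 26.9 in TC-71-R, most of it CD83. Another of the 10, the leukocyte gene PTPRC, stood at 0.0241 to 0.0797 CPM in A4573 parental, 0.116 to 0.412 in A4573-R, 1.02 to 1.11 in TC-71 parental and 0.887 to 1.02 in TC-71-R. The part of these markers in the LAMP3 result was not tested.

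LAMP3 (ENSG00000078081.7, chromosome 3, 183122213 to 183163839, minus strand, GRCh38) was measured at 0.718, 0.745 and 0.843 CPM in the A4573 parental libraries and at 5.16, 6.13 and 4.10 CPM in A4573-R. In TC-71 parental it stood at 19.1, 18.0 and 19.6 CPM, and in TC-71-R at 0.118, 0.0393 and 0.0722 CPM. The 4 groups did not overlap: TC-71 parental was highest, then A4573-R, then A4573 parental, and TC-71-R was lowest. The A4573-R mean was 6.68 times that of A4573 parental, and 6.02 times without A4573-R replicate 2, the highest library. The TC-71 parental mean was 247 times that of TC-71-R, where LAMP3 rests on 18 reads over the 3 libraries (exact Poisson interval of that sum 10.7 to 28.4), which gives a ratio of 156 to 416 from counting error alone.

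Before resistance the lines already differed, with TC-71 parental at 24.6 times A4573 parental, and between the derivatives the order was the other way, with A4573-R at 66.9 times TC-71-R. As log2 fold changes of CPM + 1, a scale that draws low genes towards 0, LAMP3 stood at 1.78 in A4573-R and −4.21 in TC-71-R, and the difference between the lines was −5.99. Because LAMP3 was chosen for its opposite changes, its rank among all genes is a description only. Among the 14335 genes tested, 158 had a larger change than LAMP3 in A4573-R, 9 in TC-71-R, and 5 a larger difference between the lines. The direction was the same in each alternative way of processing tried.

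LAMP1 and LAMP2 (lysosomal membrane glycoproteins) did not share this pattern. LAMP1 fell in both derivatives, from 132, 140 and 136 CPM in A4573 parental to 99.7, 106 and 109 in A4573-R, and from 49.9, 49.6 and 47.3 CPM in TC-71 parental to 33.6, 35.0 and 32.4 in TC-71-R. Its log2 fold changes were −0.38 ± 0.040 (SE) and −0.53 ± 0.040. LAMP2 fell in TC-71-R from a mean of 42.5 to 37.7 CPM (log2 −0.17) and did not pass the threshold in A4573-R, with 59.2 and 56.2 CPM and overlapping libraries. In 3 of 24 alternatives, edgeR among them, LAMP2 passed it in A4573-R as lower. Per kilobase of exon, LAMP3 reached 4.96 CPM in TC-71 parental, where LAMP1 stood at 8.53 and LAMP2 at 7.69, so in that group the 3 levels were of one order of magnitude. In TC-71-R the levels per kilobase were 0.0201 for LAMP3, 5.87 for LAMP1 and 6.83 for LAMP2.

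**Figure D1:**
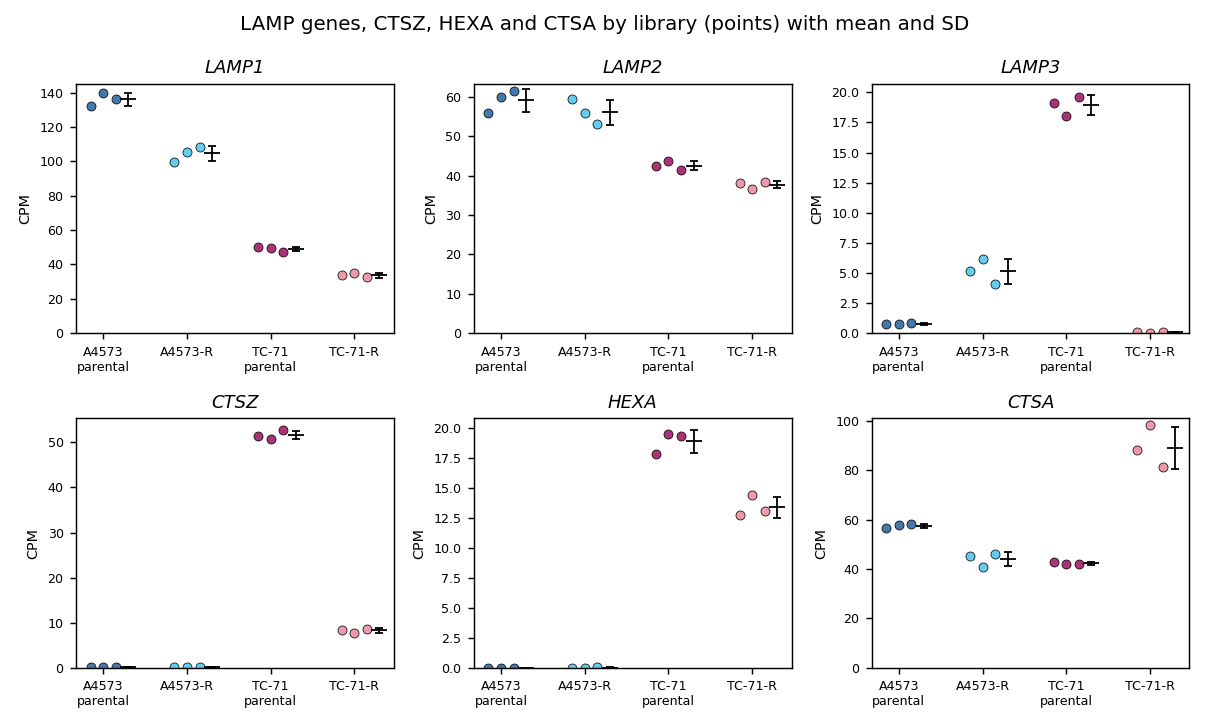
CPM (vertical axis, from 0) of LAMP1, LAMP2, LAMP3, CTSZ, HEXA and CTSA in each library of the 4 groups (horizontal axis), with the mean and SD of 3 libraries beside the points. LAMP3 is highest in TC-71 parental (18.0 to 19.6 CPM) and lowest in TC-71-R, while LAMP1 is lower in each derivative than in its parent.

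In A4573-R, 29 of the other 37 genes passed the threshold (adjusted p of 0.05, limma), where 72.5% of all genes tested did. Of these, 17 were higher (background 38.3%) and 12 lower (34.1%), and none reached a fold change of 2 in limma, edgeR or DESeq2, where 5.72% of genes did in limma. In TC-71-R, 31 of 37 passed (78.5%), with 16 higher (38.8%) and 15 lower (39.6%). A fold change of 2 was reached there by 3 (background 10.3%), CTSA and GABARAP, which rose (4.52%), and CTSZ, which fell (5.82%). With CPM computed over named genes only, 1 was higher (GABARAP) and 2 were lower (CTSZ and WIPI1) at that size. Over 24 alternatives 2 to 4 genes reached it. WIPI1, a low gene, ranged from −1.66 to −0.26 on the log2 scale over 23 alternatives. The shares called are near the background in both derivatives. The median log2 fold change of the 37 was 0.02 in A4573-R and −0.04 in TC-71-R, beside 0.02 and −0.003 over all genes, and the median size without sign was 0.31 and 0.32, beside 0.25 and 0.33.

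LAMP3 was not the only one of these genes with opposite directions in the 2 derivatives. Of the 37, 11 passed the threshold in both derivatives with opposite directions, where 26.2% of all genes did. CTSB, GAA, NPC1, ULK1, BECN1, MAP1LC3A and MAP1LC3B were higher in A4573-R and lower in TC-71-R, as LAMP3 was (7 of 37, background 14.3%), and CTSA, CTSD, TPP1 and ATG16L1 were lower in A4573-R and higher in TC-71-R (4 of 37, 11.9%). Another 12 passed in the same direction in both (31.3%). GLA, NPC2, MCOLN1, ATP6V1H, TFE3, GABARAPL1 and GABARAPL2 were higher in both (7 of 37, 16.4%), and LAMP1, SGSH, PSAP, WIPI1 and ATG7 were lower in both (5 of 37, 14.8%). The 2 comparisons share no library, but they come from the same fit and share the estimate of each gene's spread.

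In size none of the other 37 came near LAMP3 in both derivatives. None of the 11 reached a fold change of 2 in both derivatives, a pattern met by 0.649% of all genes tested. Only TPP1, NPC1 and MAP1LC3B reached 0.5 on the log2 scale in both with opposite signs, where 4.29% of genes did. The difference between the lines passed the threshold for 32 of the 37 (78.1% of all genes), 15 towards higher in TC-71-R (37.9%) and 17 towards lower (40.2%). It amounted to a factor of 2 or more in 6 (16.5%), namely CTSA, TPP1 and GABARAP on the first side (6.72%) and CTSZ, NPC1 and MAP1LC3B on the second (9.79%).

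**Figure D2:**
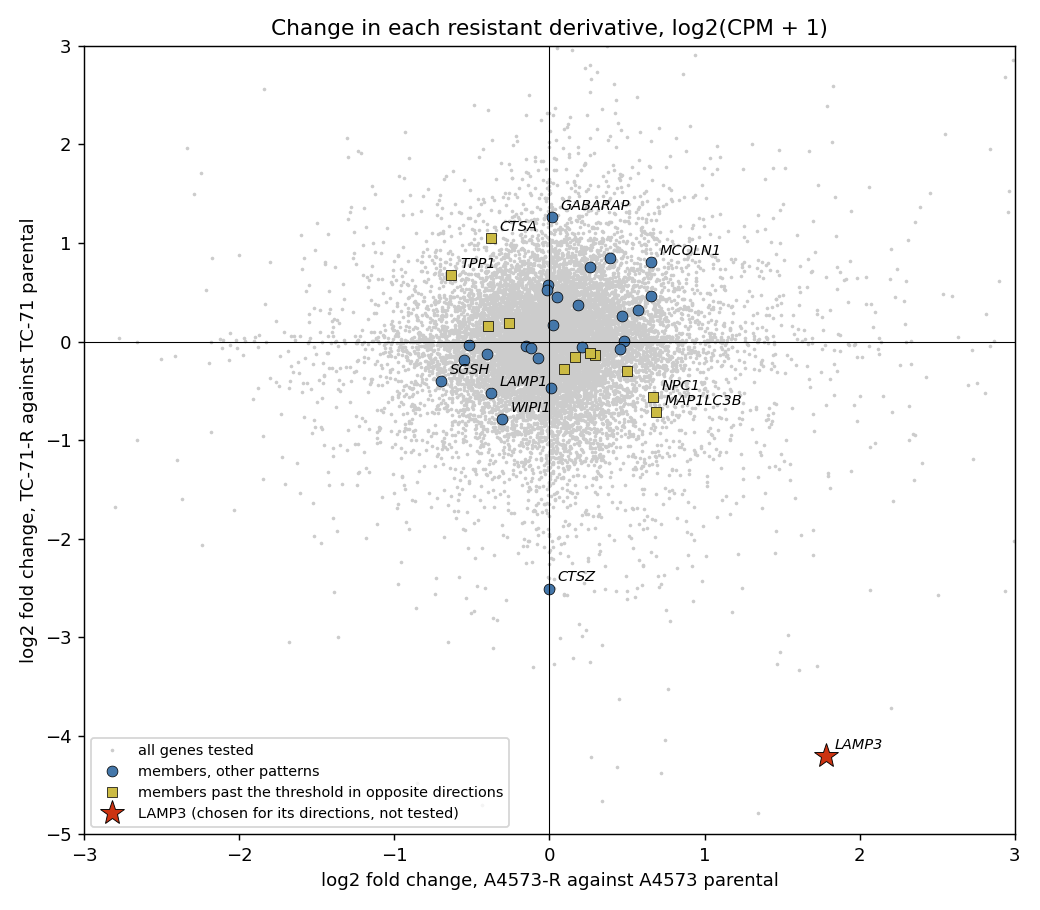
Log2 fold change in A4573-R (horizontal axis) against that in TC-71-R (vertical axis), on log2(CPM + 1), for the genes tested (grey, with 30 outside the axes not drawn) and the 38 members. LAMP3 lies at 1.78 and −4.21, the 11 squares are members past the threshold in opposite directions, and CTSZ is the only other member beyond −2 in TC-71-R.

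The cathepsins and CTSA, the protective protein of the lysosomal neuraminidase, went separate ways. CTSA fell in A4573-R (56.7, 58.0 and 58.1 to 45.4, 40.9 and 46.1 CPM) and rose in TC-71-R (43.0, 42.1 and 41.9 to 88.1, 98.2 and 81.2 CPM), with no overlap in either line. Its log2 fold changes were −0.38 ± 0.057 and 1.05 ± 0.057 (limma adjusted p = 2.5e-05 and 1.4e-10), and 1.43 ± 0.081 separates the lines. The aspartic protease gene CTSD moved in the same directions by less, from 38.2, 38.8 and 38.6 to 29.7, 28.9 and 28.5 CPM in A4573-R and from 20.9, 22.6 and 20.9 to 24.6, 24.9 and 23.1 CPM in TC-71-R.

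CTSB, a cysteine protease, went the other way. It rose from 114, 112 and 111 to 137, 136 and 140 CPM in A4573-R and fell from 103, 104 and 110 to 96.1, 92.9 and 99.4 CPM in TC-71-R, a fall of 0.13 on the log2 scale. CTSL, another cysteine protease, whose reads could be split with its pseudogenes, fell in A4573-R from 23.5, 23.0 and 24.9 to 15.9, 16.5 and 16.4 CPM. In TC-71-R its libraries overlapped those of the parent, with means of 24.6 and 24.0 CPM.

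CTSZ (chromosome 20, 58995185 to 59007247), a carboxypeptidase, was near 0 in A4573. Its 6 libraries there held 0.09995 to 0.181 CPM, or 7 to 14 reads each, so no change in A4573-R could be seen at this depth. In TC-71 parental it stood at 51.5, 50.9 and 52.7 CPM, and it fell to 8.38, 7.76 and 8.68 CPM in TC-71-R (6.25 times lower, log2 −2.51 ± 0.052, limma adjusted p = 3.0e-15). After LAMP3 it is the member with the largest change in TC-71-R. It passed the filter only through TC-71 libraries, so its difference between the parental lines is not independent of the filter.

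Among the 7 other hydrolases, 3 rose, 3 fell and 1 did not pass the threshold in A4573-R (of all genes, 38.3% rose and 34.1% fell), and 2 rose, 4 fell and 1 did not pass it in TC-71-R (38.8% and 39.6%). SGSH, a heparan sulfate sulfatase, fell in both derivatives. Its libraries went from 7.51, 7.94 and 7.95 to 4.31, 4.97 and 3.98 CPM in A4573-R (log2 −0.70 ± 0.063), and its mean went from 22.1 to 16.5 CPM in TC-71-R. TPP1, a tripeptidyl peptidase, fell from 43.8, 44.8 and 42.7 to 29.8, 26.3 and 27.6 CPM in A4573-R and rose from 103, 102 and 100 to 168, 165 and 157 CPM in TC-71-R. The groups did not overlap in either line, and TPP1 differed between the lines by 1.31 ± 0.060 on the log2 scale (limma adjusted p = 2.7e-11).

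PSAP, the precursor of the saposins and the most abundant member per kilobase in each group, fell in both, from 553 to 419 CPM and from 341 to 312 CPM. GLA, alpha-galactosidase A, rose in both, from 24.6 to 29.6 CPM and from 6.75 to 12.1 CPM. GAA, the lysosomal alpha-glucosidase, stood at 11.1, 10.7 and 11.2 CPM in A4573 parental and at 13.1, 14.5 and 12.8 in A4573-R, and at 64.5, 63.8 and 64.1 CPM in TC-71 parental and 60.0, 58.3 and 59.4 in TC-71-R. Its fall in TC-71-R is small (log2 −0.11) and was lost in 6 of 24 alternatives, among them edgeR and DESeq2. NEU1, the lysosomal neuraminidase, rose in A4573-R from 6.61 to 9.66 CPM and did not pass the threshold in TC-71-R, with 16.8 and 17.0 CPM.

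HEXA (chromosome 15, 72340919 to 72376476), the alpha subunit of beta-hexosaminidase, had 0 reads in each A4573 parental library and 0, 0 and 2 reads in A4573-R. In TC-71 parental it stood at 17.8, 19.5 and 19.3 CPM, at least 474-fold higher than the floor of 3 reads per library that a count of 0 allows in A4573 parental. It fell to 12.7, 14.4 and 13.1 CPM in TC-71-R (log2 −0.47). As with CTSZ, the filter was passed only through TC-71.

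The nearest tested genes on both sides of HEXA, CTSZ and LAMP3 were expressed in A4573. Neighbours here are genes that passed the filter, so they had to be expressed in some libraries. Genes between them that did not pass it are left out. These neighbours were chosen after the values were seen. Next to HEXA, PARP6 stood at 28.7 and 14.6 CPM in A4573 parental and A4573-R and at 78.6 and 44.04 CPM in TC-71 parental and TC-71-R. Like HEXA, it was higher in TC-71 and fell in TC-71-R, but it also fell in A4573-R. ARIH1, on the other side, stood at 69.5, 48.8, 46.9 and 35.2 CPM in the same order. Further out, PKM stood at 974, 608, 357 and 374 CPM and SENP8 at 3.35, 2.17, 2.82 and 1.88 CPM. BBS4 stood at 11.9, 8.65, 17.0 and 15.8 CPM and ADPGK at 46.7, 22.1, 31.3 and 23.3 CPM. Next to CTSZ, NELFCD stood at 172, 147, 95.6 and 90.9 CPM, and PRELID3B at 83.6, 59.2, 122 and 69.2 CPM, lower in TC-71-R than in its parent, as CTSZ was. NPEPL1, the third tested gene before CTSZ, was also higher in TC-71 parental than in A4573 parental (20.6 against 3.43 CPM). It fell in TC-71-R, to 10.7 CPM. GNAS, which lies between NPEPL1 and CTSZ, stood at 1232, 1226, 1258 and 1110 CPM. Beyond PRELID3B, SYCP2 stood at 2.85, 1.35, 3.79 and 2.46 CPM and FAM217B at 77.9, 42.0, 36.9 and 23.3 CPM. Next to LAMP3, MCCC1 (15.7 and 14.5 CPM in A4573 parental and A4573-R, 19.1 and 14.98 CPM in TC-71 parental and TC-71-R) and B3GNT5 (20.8, 29.7, 12.6 and 10.8 CPM) showed no difference between groups of the size seen in LAMP3. KLHL24, the next tested gene after B3GNT5, rose in both derivatives, from 7.12 to 22.2 CPM and from 29.2 to 41.0 CPM.

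Of the transporters and the channel, NPC1 moved in opposite directions and its partner NPC2 did not. NPC1, which exports cholesterol from the lysosome, rose from 17.7, 17.0 and 17.2 to 29.1, 28.0 and 27.0 CPM in A4573-R. It fell from 47.0, 45.8 and 44.5 to 30.7, 31.4 and 29.6 CPM in TC-71-R, so that the derivatives ended near each other, at means of 28.1 and 30.6 CPM. NPC2, which hands cholesterol to NPC1, rose in both, from 10.2, 10.2 and 9.87 to 15.7, 16.1 and 17.5 CPM and from 26.8, 29.02 and 27.1 to 38.7, 38.3 and 38.4 CPM.

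MCOLN1, the calcium channel of the lysosomal membrane, rose in both derivatives, from 13.3, 12.8 and 13.3 to 20.5, 22.0 and 21.1 CPM in A4573-R (log2 0.65 ± 0.055) and from 15.2, 15.3 and 14.8 to 25.9, 30.2 and 25.4 CPM in TC-71-R (0.80 ± 0.055). The difference of 0.15 ± 0.078 between the lines did not pass the threshold (limma adjusted p = 0.091), but passed it in 4 of 23 alternatives, edgeR among them. CLN3, a lysosomal membrane protein, rose in TC-71-R from 2.22 to 3.44 CPM and stood at 0.870 and 0.930 CPM in A4573. Of the proton pump subunits that acidify the lysosome, ATP6V1H rose in both derivatives (22.1 to 25.2 CPM and 31.6 to 41.3 CPM). ATP6V0D1 rose in TC-71-R from 28.3 to 42.7 CPM and stood at 28.5 and 28.4 CPM in A4573.

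Of the transcription factors, TFE3 was the most abundant per kilobase in each group. It rose in both derivatives, from 47.2, 47.3 and 45.9 to 63.3, 66.8 and 65.4 CPM in A4573-R (log2 0.47 ± 0.034) and from 63.3, 63.6 and 63.2 to 74.6, 78.9 and 74.0 CPM in TC-71-R (0.25 ± 0.034). TFEB rose in A4573-R, from 3.08, 3.42 and 3.88 to 5.06, 4.92 and 5.31 CPM. In TC-71 it stood at 3.23, 3.24 and 2.95 CPM in the parent and 2.83, 2.99 and 2.94 in the derivative, which overlap.

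MITF was the one of the 3 that fell in A4573-R, from 2.604, 2.50 and 2.65 to 2.14, 2.37 and 2.16 CPM (log2 −0.15), a call that was lost with DESeq2. In TC-71 it stood at 6.85, 6.19 and 6.30 CPM in the parent and 6.28, 6.24 and 6.12 in the derivative, with overlap. These are mRNA levels, while the activity of the 3 factors is known to depend on where in the cell their proteins are.

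Of the genes that start an autophagosome, ULK1, the kinase at the head of the pathway, rose from 47.0, 46.1 and 47.6 to 66.4, 65.6 and 68.4 CPM in A4573-R and fell from 68.1, 65.3 and 64.9 to 52.9, 55.7 and 52.0 CPM in TC-71-R. BECN1, of the lipid kinase complex, stood at 37.3, 38.2 and 37.6 CPM and 39.8, 39.9 and 41.2 CPM in A4573 and its derivative, a small rise (log2 0.09) that was lost in 3 of 24 alternatives. In TC-71-R it fell from 30.2, 30.9 and 31.1 to 24.8, 25.3 and 25.4 CPM. WIPI1 and WIPI2, which bind the lipid this complex makes, differed.

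WIPI1 was low and fell in both, from 1.26, 1.36 and 1.43 to 0.926, 0.800 and 0.982 CPM in A4573-R and from 1.55, 1.62 and 1.497 to 0.503, 0.459 and 0.485 CPM in TC-71-R. The second fall is 3.22 times by the means and 0.79 on the log2(CPM + 1) scale. WIPI2 rose in TC-71-R from 54.4 to 78.7 CPM (log2 0.52 ± 0.030) and did not pass the threshold in A4573-R, with 62.0 and 61.3 CPM.

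Of the conjugation genes, ATG7, the activating enzyme, fell from 10.4, 10.2 and 9.64 to 6.96, 6.37 and 6.42 CPM in A4573-R and from a mean of 14.9 to 13.0 CPM in TC-71-R. ATG16L1, which places the conjugation on the membrane, stood at 20.2, 21.2 and 20.5 CPM in A4573 parental and 17.0, 15.3 and 19.0 in A4573-R. In TC-71 it stood at 22.5, 22.3 and 21.0 CPM in the parent and 25.2, 27.7 and 22.8 in the derivative. This rise (log2 0.19) was lost in 5 of 24 alternatives. ATG5 rose in A4573-R from 34.9 to 40.6 CPM and ATG12, to which it is joined, fell there from 28.4 to 26.1 CPM, a call lost in 6 of 24 alternatives. Neither passed the threshold in TC-71-R.

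The ATG8 family split in TC-71-R between its 2 branches. MAP1LC3B, the usual marker of autophagosomes, rose in A4573-R from 53.0, 52.7 and 52.6 to 88.8, 81.2 and 86.5 CPM (log2 0.69 ± 0.036, limma adjusted p = 1.6e-10). In TC-71-R it fell from 75.7, 76.3 and 79.0 to 46.4, 45.5 and 47.3 CPM (log2 −0.72 ± 0.036, 5.1e-11). Its reads could be split with the near-identical MAP1LC3B2, which did not pass the filter. MAP1LC3A moved in the same directions by less, from 18.9, 17.7 and 17.8 to 19.3, 21.4 and 20.5 CPM and from 4.04, 4.46 and 3.98 to 3.49, 3.76 and 3.58 CPM. The first of these calls was lost in 2 and the second in 4 of 24 alternatives.

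The GABARAP branch was higher in TC-71-R throughout. GABARAP rose there from 19.1, 21.5 and 21.9 to 53.8, 53.8 and 46.8 CPM (log2 1.26 ± 0.072, limma adjusted p = 2.4e-10) and stood at 21.8 and 22.1 CPM in A4573, where the libraries overlapped. GABARAPL2 rose in TC-71-R from 28.0, 28.8 and 27.3 to 52.9, 48.6 and 52.7 CPM and in A4573-R from a mean of 28.5 to 37.5 CPM. GABARAPL1 rose in both, from 41.5 to 62.2 CPM and from 71.2 to 89.3 CPM.

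SQSTM1, the receptor p62 that ATG8 proteins bind, moved little. It stood at 39.7, 38.6 and 39.2 CPM in A4573 parental and 44.0, 34.7 and 41.5 in A4573-R, which overlap. In TC-71 parental it stood at 32.5, 31.9 and 32.8 CPM and in TC-71-R at 37.4, 33.9 and 38.6, a rise (log2 0.17) that was lost in 6 of 24 alternatives.

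**Figure D3:**
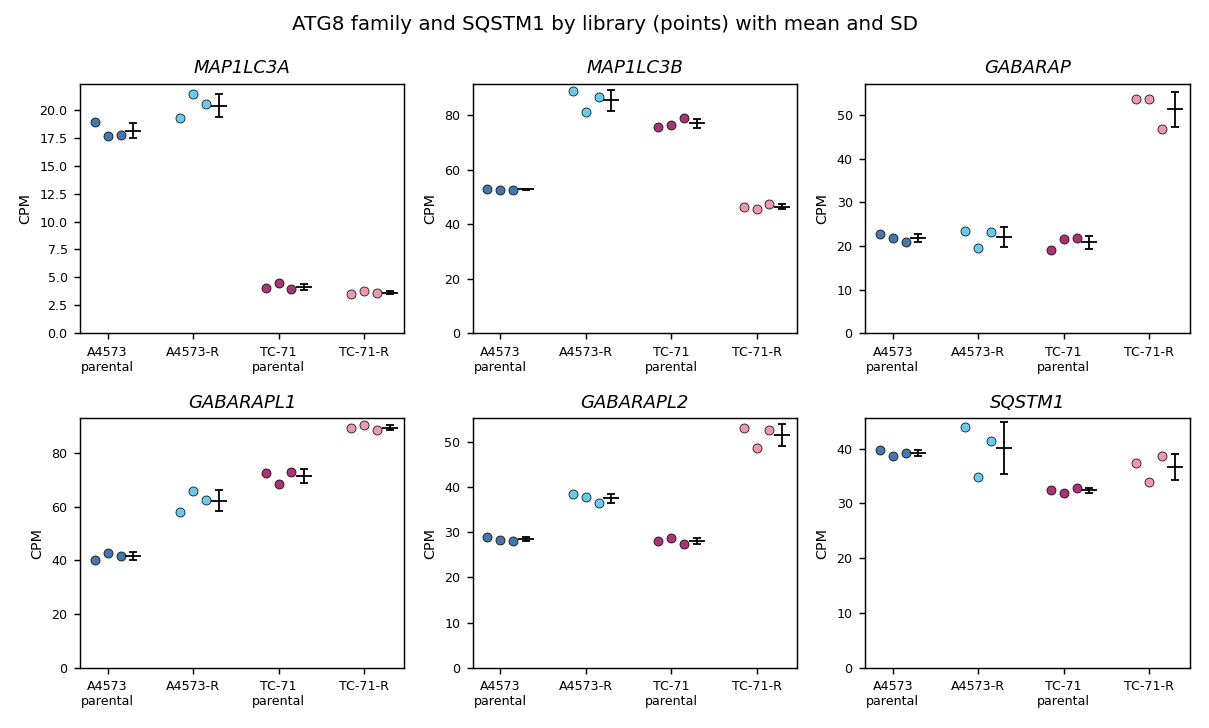
CPM (vertical axis, from 0) of the 5 ATG8 family members and SQSTM1 in each library of the 4 groups (horizontal axis), with the mean and SD of 3 libraries beside the points. MAP1LC3B is higher in A4573-R and lower in TC-71-R than in the parent, while the mean of GABARAP is 51.4 CPM in TC-71-R beside 20.8 CPM in its parental line.

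**Figure D4:**
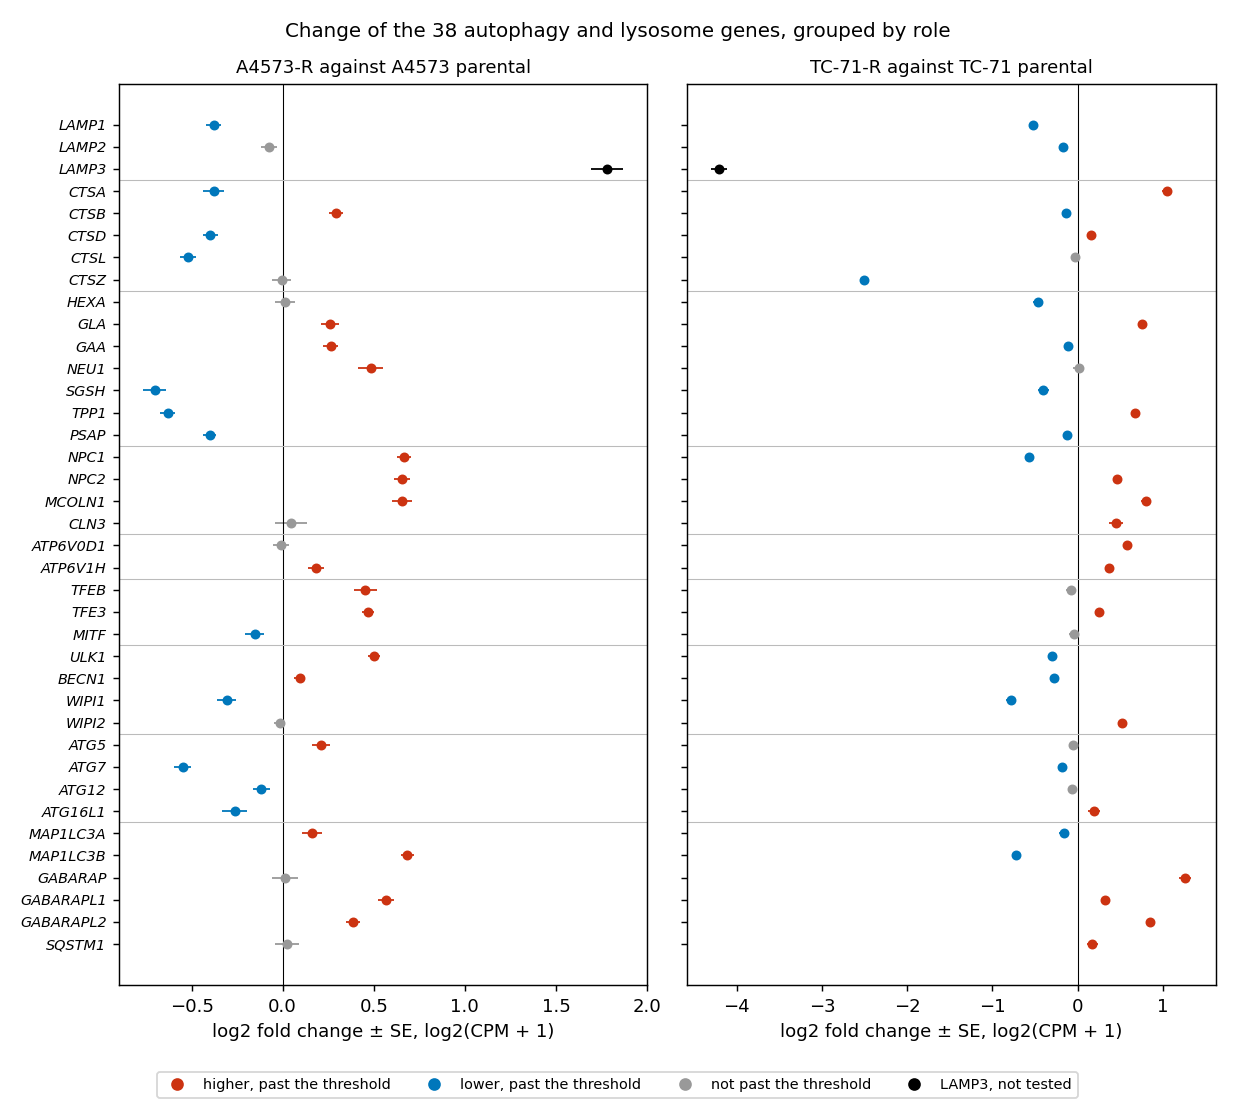
Log2 fold change with its SE (horizontal axis, on different scales in the panels) of the 38 genes, ordered by role, in A4573-R (left) and TC-71-R (right). Points are coloured by their call in limma except that of LAMP3, which is black because it was not tested, and of the other 37 CTSA, CTSZ and GABARAP are past a fold change of 2 in TC-71-R.

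Between the parental lines the shares called were near the background too. In TC-71 parental, 31 of the 37 genes passed the threshold against A4573 parental, where 89.9% of all genes did, 18 higher (45.9%) and 13 lower (44.1%). The small differences of CTSB (lower) and WIPI1 (higher) among them were lost or reversed in 6 of 24 and 10 of 23 alternatives. A fold change of 2 was reached by 13 of the 37, or 35.1% beside 30.6% of all genes. CTSZ and HEXA, which are among them, passed the filter only through TC-71 libraries, so their differences are not independent of it. CTSZ, HEXA, GAA, NEU1, SGSH, TPP1, NPC1, NPC2 and MITF were higher in TC-71 (9 of 37, 16%), among them GAA at 64.1 against 11.03 CPM. LAMP1, GLA, ATG12 and MAP1LC3A were lower (4 of 37, 14.6%), among them MAP1LC3A at 4.16 against 18.1 CPM. Between the derivatives, 36 of the 37 passed (89.2%), and SQSTM1 was the one that did not. Mitochondrially encoded genes took 2.41% to 2.95% of the reads in the A4573 and A4573-R libraries and 5.08% to 7.78% in those of TC-71 and TC-71-R, and their part in the differences between the lines was not tested.

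The other genes of the system were 158 symbols, in lists written from general knowledge with earlier results of these data known. Of these, 143 passed the filter, and they were called about as often. In A4573-R 107 of the 143 passed the threshold (74.8%, beside 72.5% of all genes), 60 higher (38.3% of all genes) and 47 lower (34.1%), and 4 at a fold change of 2 (CTSK, SLC17A5, OPTN and BNIP3), or 2.80% beside 5.72%. In TC-71-R 117 passed (81.8%, beside 78.5%), 64 higher (38.8%) and 53 lower (39.6%), and 8 at a fold change of 2, or 5.59% beside 10.3%. The counts of the single lists are to be read against these shares of all genes, and none of the lists was tested against other genes. Of the 11 autophagy receptors other than SQSTM1, 8 rose (38.3% of all genes) and 2 fell (34.1%) in A4573-R, and 8 rose (38.8%) and 1 fell (39.6%) in TC-71-R. NBR1, OPTN, CALCOCO2, BNIP3L, FUNDC1 and RETREG1 rose in both (6 of 11, beside 16.4% of all genes). OPTN, a receptor for mitochondria and bacteria, rose from 2.71 to 11.2 CPM and from 6.20 to 12.4 CPM, and BNIP3, a mitochondrial receptor, rose in A4573-R from 33.3 to 77.1 CPM. NCOA4, the receptor for ferritin, was the receptor with opposite directions, at 90.5 and 55.0 CPM in A4573 and A4573-R and 60.0 and 94.5 CPM in TC-71 and TC-71-R.

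Of 10 other cathepsins 6 were tested. In A4573-R 4 fell (34.1% of all genes) and none rose (38.3%), and in TC-71-R 3 rose (38.8%) and 2 fell (39.6%). CTSC, which activates serine proteases, fell in both (100.5 to 51.5 CPM and 37.01 to 13.8 CPM), CTSK fell in A4573-R from 15.2 to 6.62 CPM, and CTSF rose in TC-71-R from 6.25 to 24.5 CPM. Of 27 other hydrolases tested, 11 rose and 9 fell in A4573-R, and 10 rose and 12 fell in TC-71-R. Of 17 other proton pump subunits tested, 8 rose and 4 fell in A4573-R, and 10 rose and 4 fell in TC-71-R, where ATP6V0E1 went from 34.2 to 83.7 CPM and ATP6V0A2 from 34.5 to 14.1 CPM.

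Of 17 other lysosomal membrane proteins tested, 7 rose and 8 fell in A4573-R (38.3% and 34.1% of all genes), and 7 rose and 6 fell in TC-71-R (38.8% and 39.6%). LAPTM4B, OSTM1 and MFSD12 were higher in A4573-R and lower in TC-71-R (3 of 17, beside 14.3% of all genes), and CTNS, TPCN2 and CLCN7 were the reverse (3 of 17, beside 11.9%). LAPTM4B and OSTM1 stood at 126 and 222 CPM in A4573 and A4573-R and 143 and 105 CPM in TC-71 and TC-71-R for the first, and 14.8 and 22.6, then 31.4 and 16.4 CPM, for the second. LAMP5, CD68 and LAPTM5 did not pass the filter. The sialin gene SLC17A5 rose in A4573-R from 10.1 to 21.7 CPM. Of 6 genes that sort hydrolases to the lysosome, by mannose 6-phosphate or otherwise, 3 rose and 2 fell in A4573-R. In TC-71-R 2 rose and 4 fell, beside the same shares of all genes. IGF2R, GNPTAB and SORT1 were higher in A4573-R and lower in TC-71-R (3 of 6, beside 14.3% of all genes). NAGPA was the reverse (1 of 6, beside 11.9%). In TC-71-R SORT1 fell from 42.8 to 17.7 CPM and NAGPA rose from 7.92 to 17.3 CPM.

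Of the 19 genes of mTORC1 and nutrient sensing at the lysosome, 7 rose and 6 fell in A4573-R (38.3% and 34.1% of all genes), and 5 rose and 9 fell in TC-71-R (38.8% and 39.6%), none by a factor of 2. RPTOR, the subunit through which mTORC1 recognises its substrates, fell in both (44.1 to 36.2 CPM and 55.5 to 37.7 CPM). Of 20 other autophagy start genes, 6 rose and 8 fell in A4573-R, and 10 rose and 8 fell in TC-71-R, where ATG101, a subunit of the ULK1 complex, went from 27.3 to 11.3 CPM. Of 8 other conjugation genes tested, 3 rose and 2 fell in A4573-R, and 2 rose and 2 fell in TC-71-R. ATG4B, the protease that trims ATG8 proteins, fell in A4573-R from 40.7 to 29.3 CPM and rose in TC-71-R from 62.8 to 79.8 CPM. Of 12 fusion genes tested, 7 rose and 2 fell in A4573-R, and 7 rose and 5 fell in TC-71-R, where VPS11 rose from 15.5 to 30.5 CPM.

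The genes most like LAMP3 over the 12 libraries, by Pearson's r of log2(CPM + 1) after each line was centred on its own mean, were ERN1 (0.999), SPRY2 (0.999), RIMS3 (0.999), CSRNP2 (0.998) and FAM129A (0.998). This is a description over 12 libraries of 4 groups, in which 763 genes exceeded 0.95. ERN1, the sensor IRE1 of the unfolded protein response, stood at 6.67 and 13.5 CPM in A4573 parental and A4573-R, and at 46.6 and 11.3 CPM in TC-71 parental and TC-71-R. Among the members the most alike were BECN1 (0.975), MAP1LC3B (0.927) and CTSZ (0.916), and CTSA (−0.988) was the least. A high r does not require a rise in A4573-R like that of LAMP3. CTSZ was near 0 in A4573, with a log2 fold change of −0.005 that did not pass the threshold. BECN1 rose by 0.09 there.

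The list of 10 genes of the ATF4 stress response was written with earlier results of these data known. Of the 10, 9 rose in A4573-R and fell in TC-71-R, beside 14.3% of all genes. In A4573-R all 10 rose (38.3% of all genes), 7 of them by a factor of 2 or more (3.49%), with a median log2 fold change of 1.43. In TC-71-R 9 fell (39.6%), each by a factor of 2 or more (5.82%), with a median over the 10 of −1.93. ATF4 itself rose in both, from 416 to 464 CPM in TC-71-R. CHAC1, a glutathione-degrading enzyme, stood at 4.73, 4.61 and 4.55 CPM in A4573 parental, 44.3, 103 and 43.5 in A4573-R, 57.6, 54.3 and 57.6 in TC-71 parental and 7.83, 8.38 and 7.84 in TC-71-R. TRIB3, a pseudokinase, fell in TC-71-R from 622 to 62.8 CPM. A4573-R replicate 2 was the highest of its group in all 10 and in LAMP3, and replicate 3, the lowest in LAMP3, was the lowest in 9 of the 10. Without replicate 2, left out after its values were seen, 9 of the 10 rose, 6 of them by a factor of 2 or more (median 1.116). In the other groups the order was shared less. The library highest in LAMP3 was the highest in 4 of the 10 in A4573 parental and in 7 in TC-71 parental. The library lowest in LAMP3 was the lowest in 2 of the 10 in each of these groups. In TC-71-R LAMP3 has 3 to 8 reads a library. Its highest library there was the highest in 2 of the 10, and its lowest was the lowest in 1.

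Of 7 interferon genes tested, 1 rose (38.3% of all genes) and 5 fell (34.1%) in A4573-R, and 6 rose (38.8%) and 1 fell (39.6%) in TC-71-R. Of 9 hypoxia genes tested, 5 rose and 2 fell in A4573-R, and 2 rose and 4 fell in TC-71-R, beside the same shares of all genes. In TC-71-R VEGFA went from 152 to 44.8 CPM and NDRG1 from 0.607 to 11.5 CPM. The part of the stress, interferon and hypoxia genes in the LAMP3 result was not tested.

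**Figure D5:**
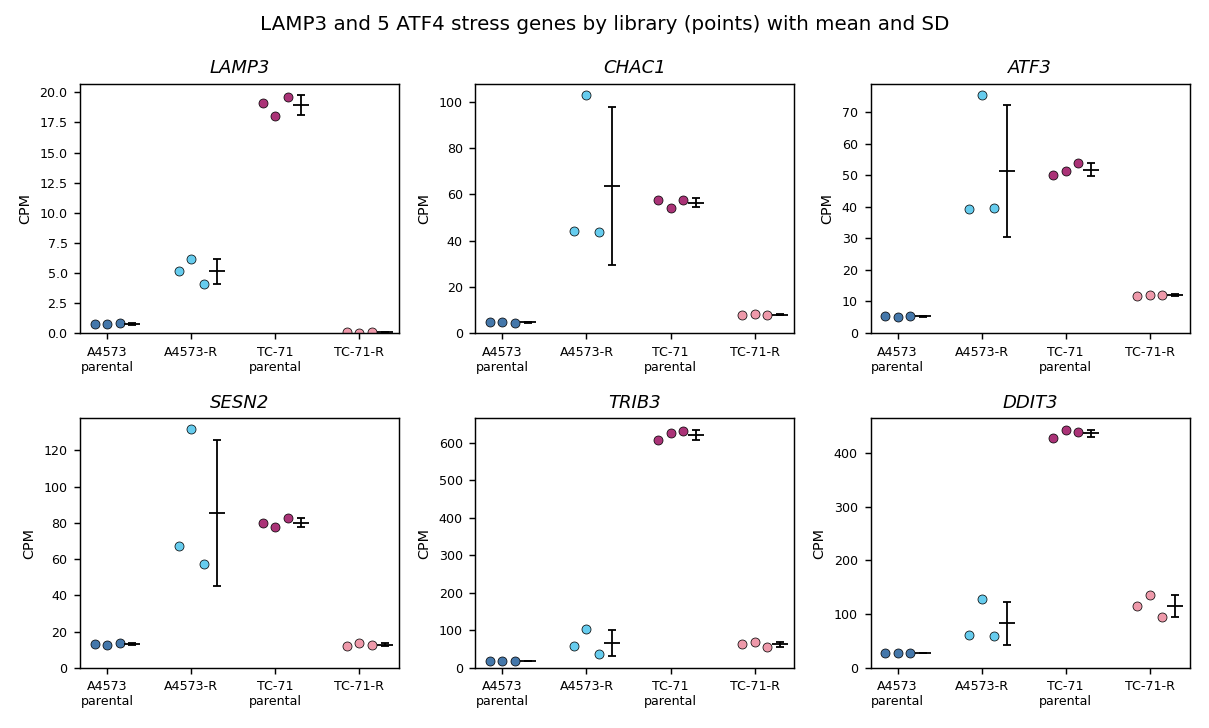
CPM (vertical axis, from 0) of LAMP3 and 5 ATF4 stress genes in each library of the 4 groups (horizontal axis), with the mean and SD of 3 libraries beside the points. In A4573-R replicate 2 is the highest point in each of the 6 panels, and TC-71-R is below TC-71 parental in each.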

How the data were processed

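RNA of 12 libraries in 4 groups of 3 was sequenced as paired ends. The labels do not say whether the libraries of a group come from separate cultures, so p-values measure the spread between libraries only. The tools named in the submitters' processing notes are Trimmomatic, STAR 2.4, HTSeq and edgeR, and the build is GRCh38. Library strand and counting settings are not given in the sources used here, so overlapping and antisense genes cannot be told apart. The deposited signal is a normalized value per gene, CPM after a scaling of each library's size by 0.894 to 1.06, and dividing by each library's step gave whole reads. Entries with no gene name (5 per file, 30.6% to 42.0% of reads) were left out of the depth given and of the genes tested. Their reads remain in the library size behind the CPM tested. With CPM computed over named genes only, the median log2 fold change over all genes in TC-71-R was −0.061, beside −0.003.

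A gene was tested when 3 or more libraries held at least 1 CPM. One limma 3.58.1 model (R 4.3.3) with 4 group means was fitted to log2(CPM + 1), with moderated variances, a trend on expression and Benjamini-Hochberg adjustment over all genes (threshold 0.05). A fold change of 2 is 1 on that scale, and this count was added after the data were seen. The pipeline was tested on simulated data. Counting intervals are exact at 95%, and the floor for a count of 0 is 3 reads. Both cover counting error only. Positions are from GENCODE on GRCh38, and levels per kilobase use all exon bases of a gene.

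The members and all lists were chosen with earlier results of these data known. Values in every library are given for LAMP3, the 3 transcription factors, SQSTM1, the 4 members per direction with the largest changes in each derivative and those with opposite calls. From other lists, up to 3 genes per direction with the largest change and no overlap could be named, and some others are given to describe a list. Some genes that the rule would name are not reported here. Alternatives were the pseudocount (0.25, 5), the filter, the scaling, edgeR 4.0.16, DESeq2 1.42.0, group weights, 2 groups alone, a replicate block and leaving out each library.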

Additional observations from a re-analysis of the deposited data

Results flagged for a closer look

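The change in TC-71-R minus the change in A4573-R, on the log2(CPM + 1) scale, drew attention to LAMP3 and 32 of the other 37 genes. For LAMP3 it was −5.99, with every library of A4573-R above and every library of TC-71-R below its parent, and this difference was not tested. For the 32 it passed the threshold in limma as a difference between the lines.

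In 15 genes the value was above 0, meaning relatively higher in TC-71-R: CTSA (1.43), TPP1 (1.31), GABARAP (1.25), ATP6V0D1 (0.59), CTSD (0.56), WIPI2 (0.54), GLA (0.50) and CTSL (0.49), then GABARAPL2 (0.46), ATG16L1 (0.45), CLN3 (0.40), ATG7 (0.36), SGSH (0.30), PSAP (0.27) and ATP6V1H (0.19). In 17 it was below 0: CTSZ (−2.50), MAP1LC3B (−1.40), NPC1 (−1.23), ULK1 (−0.80), TFEB (−0.53), HEXA (−0.48), WIPI1 (−0.48), NEU1 (−0.47) and CTSB (−0.43), then GAA (−0.38), BECN1 (−0.37), MAP1LC3A (−0.32), ATG5 (−0.26), GABARAPL1 (−0.25), TFE3 (−0.21), NPC2 (−0.19) and LAMP1 (−0.15). HEXA and CTSZ were at or near 0 in A4573, so their values describe TC-71-R alone. For LAMP2, MCOLN1, MITF, ATG12 and SQSTM1 the difference did not pass the threshold. As 78.1% of all genes tested passed it, the number of genes is near that background.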

How the results depend on the processing

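Over up to 24 alternatives the counts of called genes among the 37 stayed within 1.5 times their values: 27 to 29 in A4573-R, 29 to 32 in TC-71-R, 29 to 34 for the difference between the lines, and 8 (edgeR) to 11 with opposite directions. At a fold change of 2 they were 0 in A4573-R under each alternative, and 2 to 4 in TC-71-R. Of the 11 genes with opposite calls, CTSA, CTSB, CTSD, TPP1, NPC1, ULK1 and MAP1LC3B kept both calls in all 24 alternatives, GAA and MAP1LC3A in 18, ATG16L1 in 19 and BECN1 in 21. Between the parental lines, CTSB (log2 −0.09) and WIPI1 (0.12) reversed under quantile normalization, to 0.12 and −0.10. The cause was not tested. The HEXA difference between the lines was lost with edgeR and DESeq2, and that of LAMP1 in 10 of 23 alternatives. LAMP3 rests on 18 reads in TC-71-R, and its log2 fold change there ranged from −7.95 (DESeq2) to −2.24 (pseudocount 5).

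With the replicate number as a block, 29 genes were called in A4573-R, 31 in TC-71-R and 11 in opposite directions, as without it. The labels do not say that numbers pair libraries, and the correlation of deviations of same-numbered libraries was −0.097 to 0.17, over 0.1 in 2 of 18 pairs, with 4 of 12 libraries correlating best with their own number.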
